A study of Mus musculus with 10 samples.

Results

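Kinesins, centromere and kinetochore proteins and the kinases and inhibitors of the mitotic checkpoint were described in muscle stem cells (MuSCs) with and without a floxed Trpm7 gene. Members were chosen by gene symbol: all Kif and Cenp symbols of the count table and a fixed list of other genes. The list holds kinetochore, checkpoint, passenger, spindle pole and midzone genes. No measured value entered this rule, but members and role groups were chosen with earlier results of these data known. The rule gave 84 of the 24608 symbols in the table, of which 55 belong to the mitotic machinery, 27 are other kinesins, and the remaining members are Cenpj and Cenpv. After genes with too few counts had been removed, 56 of the 84 members were among the 7753 genes tested, and the other 28 are described by their counts.

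The study asked what the loss of TRPM7, an ion channel that passes Mg2+ and carries a kinase domain, does to MuSCs in regenerating muscle. Cells came from control mice, Trpm7+/+; Pax7 CreERT2/+; Rosa26 YFP, and from Trpm7 cKO mice, Trpm7 flox/flox; Pax7 CreERT2/+; Rosa26 YFP. Both genotypes thus carried the tamoxifen (TMX) inducible Cre recombinase expressed from Pax7, a gene of satellite cells, and the YFP reporter, and both were TMX-treated adults on a C57BL6 background with age-matched controls of both sexes. Muscle was injured by cardiotoxin (CTX), a toxin that destroys myofibers, and 3000 cells were sorted into each library 3 days later. Each genotype had 5 libraries. The sort was for YFP-positive cells, by the study's account of its isolation of MuSCs, and no further gate is given in the sources used here. The library names of Trpm7 cKO replicates 4 and 5 share a number whose meaning is not stated, and nothing says that all libraries came from separate animals, so that p-values measure the spread between these libraries.

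CEL-Seq2 libraries count the 3′ ends of transcripts, and a unique molecular identifier (UMI) keeps copies of 1 molecule from being counted again. Control libraries held 914361 to 1097709 counts and Trpm7 cKO libraries 205986 to 581121, without overlap. Levels are given as CPM, the count of a gene divided by the library total in units of 1e+06 counts, after TMM normalization, and ± stands for the SD over 5 libraries throughout. Where a gene had 0 counts in a library, its level there may be up to that of 3 counts, which is 2.98 to 3.47 CPM in control libraries, 4.97 to 11 CPM in Trpm7 cKO replicates 1 to 4 and 16.6 CPM in replicate 5, counting error only. Trpm7 itself was counted 66 to 84 times in a control library and 10 to 55 times in a Trpm7 cKO library (log2 fold change -0.09, standard error 0.20, adjusted p = 0.723, edgeR's quasi-likelihood test). The position of the floxed part is not given in the sources used here, so whether counts of the 3′ end bear on the deletion is not known. The study reported the deletion from its own genetic analysis, which included a measurement of Trpm7 mRNA in freshly isolated MuSCs. The values of that measurement are not given in its text, and how they relate to the counts here was not tested. The study also reported the deficiency by immunofluorescence of TRPM7 in MuSCs on freshly isolated myofibers.

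A dividing cell builds a kinetochore on the centromere of each chromosome, and the kinetochore grips the microtubules of the spindle. Kinesins are motor proteins that walk along or take apart microtubules. Some of them assemble the spindle or divide the cell, and others carry cargo in cells that do not divide. The spindle checkpoint holds back the anaphase-promoting complex until all kinetochores are attached. Quiescent MuSCs enter the cell cycle after injury, and most genes of the mitotic machinery are transcribed late in the cycle, from promoters that often hold a cell cycle genes homology region (CHR), bound by the MuvB core of the DREAM and MYB complexes, beside CCAAT boxes, bound by NF-Y.

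The promoters of 6 mitotic members with such letters, from 5 role groups, and of Kif1c, a cargo kinesin without them, are shown as examples of a feature that the choice of members did not use. Each line runs 5′ to 3′ on the strand of the gene, from 70 bases before to 30 bases after the RefSeq start, in GRCm38.p6. Capitals mark CHR letters (TTTGAA or TTCGAA) and CCAAT letters on either strand, so that TTCAAA and ATTGG are the same motifs read from the opposite strand. In Cdca8 the final CHR and ATTGG letters overlap, and the capitals there hold both.
Cenpa, chr5:30666816-30666915, plus strand: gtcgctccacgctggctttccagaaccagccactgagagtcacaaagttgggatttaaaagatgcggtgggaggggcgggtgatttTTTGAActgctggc
Spc25, chr2:69206184-69206283, minus strand: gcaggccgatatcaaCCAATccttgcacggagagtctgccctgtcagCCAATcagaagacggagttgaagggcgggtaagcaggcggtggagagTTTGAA
Cdc20, chr4:118437314-118437413, minus strand: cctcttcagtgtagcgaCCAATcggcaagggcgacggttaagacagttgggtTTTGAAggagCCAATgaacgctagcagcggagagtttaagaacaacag
Cdca8, chr4:124936888-124936987, minus strand: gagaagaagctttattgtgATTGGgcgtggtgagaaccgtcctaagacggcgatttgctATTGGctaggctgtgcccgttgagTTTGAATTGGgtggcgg
Kif11, chr19:37376312-37376411, plus strand: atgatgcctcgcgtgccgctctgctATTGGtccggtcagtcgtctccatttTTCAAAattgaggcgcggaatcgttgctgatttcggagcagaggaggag
Kif23, chr9:61946770-61946869, minus strand: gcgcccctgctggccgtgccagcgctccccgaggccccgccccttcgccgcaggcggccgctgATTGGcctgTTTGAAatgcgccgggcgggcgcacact
Kif1c, chr11:70700478-70700577, plus strand: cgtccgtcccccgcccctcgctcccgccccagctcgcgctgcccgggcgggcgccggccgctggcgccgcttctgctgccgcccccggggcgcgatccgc

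Cenpa encodes the centromeric histone H3, Spc25 a subunit that anchors the NDC80 complex at the kinetochore, Cdc20 the activator that the checkpoint blocks, Cdca8 a passenger protein, and Kif11 and Kif23 motors of the spindle and of the midzone. RefSeq windows of 300 bases, from 250 before to 50 after the start, were listed for 70 of the 84 members, 79 windows in all. CHR letters stood in 57.4% of 54 windows of mitotic members, in 17.4% of 23 windows of other kinesins and in 19.2% of all 32851 windows listed. CCAAT letters stood in 70.4%, 34.8% and 37.4% of the same windows, and both kinds together in 48.1%, 13% and 7.52%. With the window cut to 100 bases before the start, CHR letters stood in 50%, 17.4% and 8.59%. Among mitotic members tested, CHR letters stood in 66.7% of the 27 windows of members called lower and in 50% of the 18 windows of members not called, or in 63.0% and 38.9% with the shorter window, a difference that was not tested. These windows belong to 26 and 14 genes, and a gene with several windows entered with each of them, so the percentages are not shares of genes. A match of letters is a description of the window and not a binding site.

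**Figure D1:**
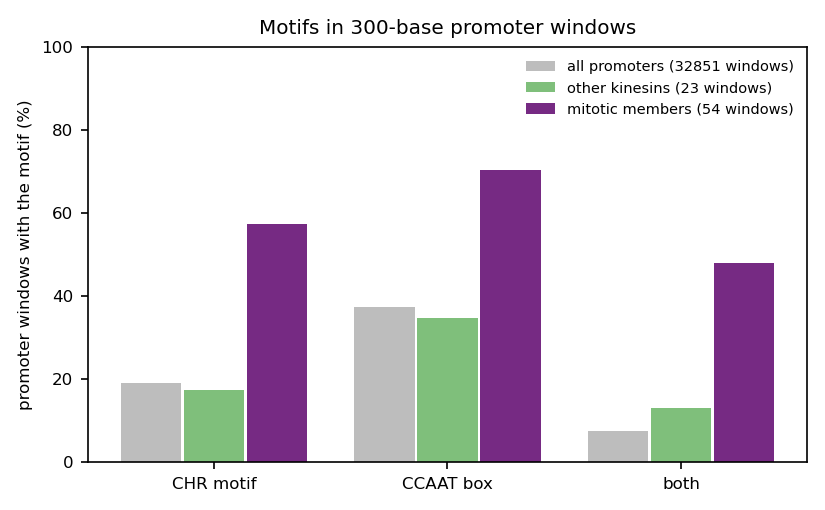
Share of 300-base promoter windows (y axis, percent, starting at 0) that hold CHR letters, CCAAT letters or both, for all promoters in grey, other kinesins in green and mitotic members in purple, with the number of windows in the legend. Both kinds of letters stood together in 48.1% of mitotic windows, 13% of other kinesin windows and 7.52% of all windows.

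Most of the mitotic members were lower in Trpm7 cKO libraries. Summed over the 55 mitotic members, low ones included, control replicates 1 to 5 had 4047, 3563, 3742, 3755 and 3272 CPM and Trpm7 cKO replicates 1 to 5 had 1539, 1879, 1739, 2590 and 1562 CPM. Each control library exceeded all Trpm7 cKO libraries, and the means, 3676 ± 285 and 1862 ± 430 CPM, differed 1.97-fold. The 27 other kinesins summed to 821 ± 45.6 CPM in control and 858 ± 52.6 CPM in Trpm7 cKO libraries, with overlapping ranges of 775 to 895 and 802 to 916 CPM. Counted within each library, mitotic members had 3.98 to 5.09 counts for each count of another kinesin in control and 1.71 to 3.23 in Trpm7 cKO libraries. In pooled cells, a lower level cannot tell fewer cells in mitosis from less RNA in each, or from a larger share of other cells. Markers of other cells, which moved with the genotype, are given below.

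By edgeR's quasi-likelihood test, adjusted by the Benjamini-Hochberg method over all 7753 genes, 33 of 56 tested members were lower at an adjusted p below 0.05 (58.9%), beside 24.1% of all genes tested. Higher were 3 members, Kif1c, Kif13a and Kif13b (5.36%), beside 24.6% of all genes. With counts taken per sorted cell in place of CPM their log2 fold changes were 0.06, -0.53 and -0.19. In that setting, which makes no correction for library size, the median of all genes was -1.17. With a log2 fold change beyond 1.5 as well, the threshold of the study's methods, 4 members were lower, Cenpi, Mad2l1, Aurka and Plk1, beside 3.53% of all genes, and 0 were higher, beside 8.49%. DESeq2 gave 4 and 0 as well, and at an unadjusted p below 0.05 edgeR had 0 members higher at that size of change and 3 at any size. None of the 45 mitotic members tested was higher, also at an unadjusted p below 0.05 and by DESeq2 or limma-voom. Each control library exceeded all Trpm7 cKO libraries for 24 of the 56, beside 17.9% of all genes. The median log2 fold change was -0.70 over the members tested and -0.01 over all genes. Of the 56, 17 had passed the filter on low counts through their control libraries alone, 12 of them called lower, while 30 had passed in both genotypes, 21 of them called lower and 2 higher. A further 2 passed through Trpm7 cKO libraries alone, 1 of them called higher, and 7 through libraries of both genotypes together, with 0 called. Among the 4 members past both thresholds, Cenpi and Aurka had passed through control libraries alone and Mad2l1 and Plk1 in both genotypes. Among the 3 called higher, Kif13b had passed through Trpm7 cKO libraries alone. Of the 24 higher in each control library, Aurka, Aurkb, Cenph, Cenpi, Cenpw, Nuf2, Plk4 and Zwilch had passed through control libraries alone. With scaling on satellite cell markers in place of TMM, the calls of Bub1, Cenpc1, Cenpe, Kif13a, Kif1b, Kif22, Ndc80 and Spc24 were lost (adjusted p between 0.0545 and 0.092), and with total counts alone those of Bub1, Cenpc1 and Kif22 (adjusted p between 0.0686 and 0.0781).

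**Figure D2:**
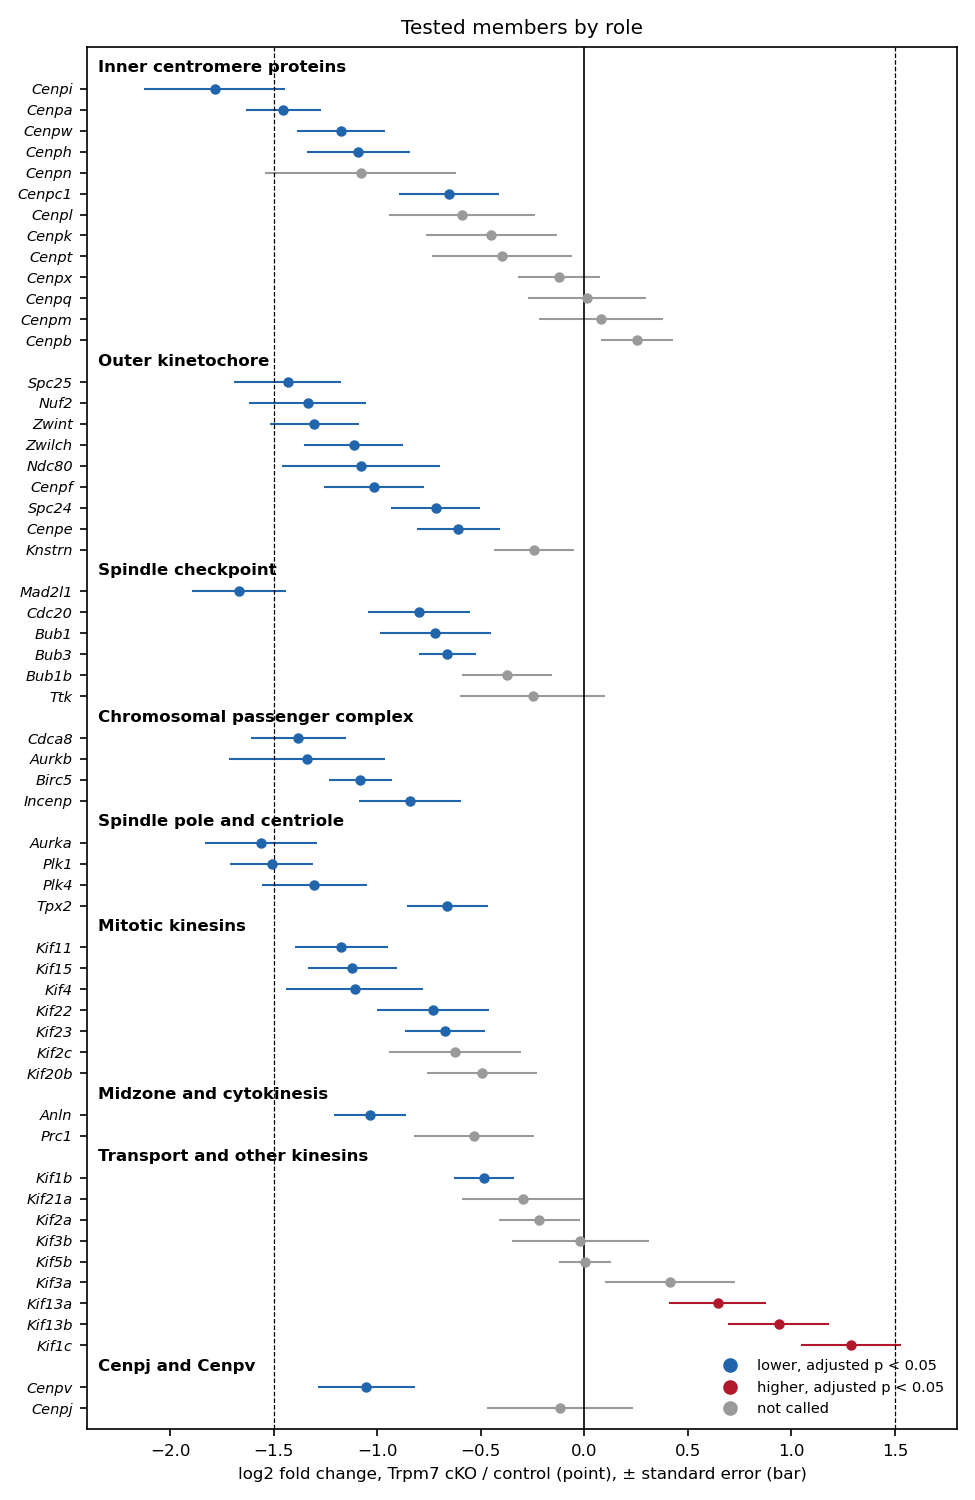
Log2 fold change of Trpm7 cKO over control (x axis, points) with its standard error (bars) for the 56 tested members, grouped by role, from edgeR's quasi-likelihood fit of CPM-scaled counts; dashed lines stand at 1.5 and -1.5. Blue members were called lower (33), red higher (Kif13a, Kif13b and Kif1c) and grey not called (20), and the red points lie among the other kinesins. With counts per sorted cell, Kif13a and Kif13b were below 0, while the median of all genes was -1.17.

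At the inner centromere, 5 of 13 tested members were lower (38.5%, beside 24.1% of all genes tested), 0 higher, and their median log2 fold change was -0.59. Of the members called, Cenph, Cenpi and Cenpw had passed the filter through control libraries alone. Cenpa, the histone H3 variant that marks the centromere, had 530.0, 364, 547, 547 and 370.4 CPM in control replicates 1 to 5 and 148, 184, 157, 234 and 116 CPM in Trpm7 cKO replicates 1 to 5. The groups did not overlap, and replicate 4 was the highest of the Trpm7 cKO libraries. The difference was 2.74-fold (log2 fold change -1.45, standard error 0.18, adjusted p = 2.4e-06).

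Cenpi, a subunit of the constitutive centromere-associated network that binds CENP-A chromatin, had the lowest log2 fold change of all members. Its levels were 40.8, 44.4, 47.2, 46.2 and 27.8 CPM in control replicates 1 to 5 and 5.54, 16.6, 7.31, 19.9 and 0 CPM in Trpm7 cKO replicates 1 to 5, again without overlap and with 0 counts in Trpm7 cKO replicate 5. Cenpi fell by 1.78 on the log2 scale (standard error 0.34, adjusted p = 0.000227). Cenph and Cenpw, of the same network, fell likewise, with log2 fold changes of -1.09 (standard error 0.25, adjusted p = 0.00111) and -1.17 (standard error 0.21, adjusted p = 0.000125). Cenpc1, which bridges the network to the outer kinetochore, was called at -0.65 (standard error 0.24, adjusted p = 0.0296), with Trpm7 cKO levels of 20.3 to 47.5 CPM that overlapped the control range of 45.2 to 56.8 CPM. Its adjusted p lay between 0.0504 and 0.0925 without control replicate 3 or 4 or Trpm7 cKO replicate 1 or 2.

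The other inner centromere members did not pass the test. Cenpn, which binds the CENP-A nucleosome, had 14.1 to 18.6 CPM in control libraries, 0 to 5.54 CPM in Trpm7 cKO replicates 1, 2, 3 and 5, and 19.9 CPM in Trpm7 cKO replicate 4. Its log2 fold change was -1.08 (standard error 0.46, adjusted p = 0.0591), and -2.31 (adjusted p = 7.18e-04) with that library left out. Cenpn was also called by limma-voom (adjusted p = 0.00579), without a filter (adjusted p = 0.0114) and with Trpm7 cKO replicates 4 and 5 summed (adjusted p = 0.0366). Cenpk, Cenpl and Cenpt had log2 fold changes of -0.45, -0.59 and -0.40, and Cenpx, Cenpq and Cenpm of -0.12, 0.01 and 0.08. Cenpb, which binds a box in satellite DNA, was the highest at 0.26 (standard error 0.17, adjusted p = 0.233). The 4 inner centromere members removed by the filter, Cenpo, Cenpp, Cenps and Cenpu, had 15, 26, 37 and 16 counts over all libraries, with overlap in CPM between the genotypes. Of the fits that leave out a library, Cenpl was called in the 1 without Trpm7 cKO replicate 4 (log2 fold change -1.0, adjusted p = 0.0429).

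In the outer kinetochore, the part that holds microtubules, 8 of 9 members were lower (88.9%, beside 24.1% of all genes tested). None was higher, beside 24.6% of all genes, and the median log2 fold change was -1.08. Ndc80, Nuf2 and Zwilch had passed the filter through control libraries alone. Spc25, Nuf2, Ndc80 and Spc24 form the NDC80 complex. Spc25 had 102, 85.7, 101, 109 and 60.2 CPM in control replicates 1 to 5 and 22.2, 42.3, 14.6, 53.0 and 22.1 CPM in Trpm7 cKO replicates 1 to 5. Nuf2 had 42.8, 36.1, 44.0, 51.2 and 30.1 CPM in control replicates 1 to 5 and 9.24, 18.4, 11, 24.9 and 11 CPM in Trpm7 cKO replicates 1 to 5. Neither gene overlapped between the genotypes, with log2 fold changes of -1.43 (standard error 0.26, adjusted p = 0.000133) and -1.34 (standard error 0.28, adjusted p = 0.000553).

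For Ndc80, 1 library stood apart. Its control levels were 36.8, 26.9, 33.2, 35.1 and 22.0 CPM and its Trpm7 cKO levels 9.24, 7.36, 11, 33.1 and 0 CPM, so that Trpm7 cKO replicate 4 stood inside the control range and replicate 5 had 0 counts. The call of Ndc80 (log2 fold change -1.08, standard error 0.38, adjusted p = 0.0254) became -1.98 with an adjusted p of 1.77e-04 without Trpm7 cKO replicate 4, and was lost (adjusted p between 0.0521 and 0.0781) without control replicate 1 or 4 or Trpm7 cKO replicate 1, 2 or 3. Spc24 fell at -0.72 (standard error 0.21, adjusted p = 0.00881), with Trpm7 cKO replicate 4 again at 74.6 CPM in a control range of 67.6 to 91.5 CPM. Differences between subunits of the complex were not tested.

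Zwint, which links the microtubule-binding network to the checkpoint, had 111, 88.8, 98.7, 179 and 99.6 CPM in control replicates 1 to 5 and 40.6, 53.4, 43.9, 51.4 and 38.6 CPM in Trpm7 cKO replicates 1 to 5. The groups did not overlap, and control replicate 4 stood above all others (log2 fold change -1.30 (standard error 0.21, adjusted p = 4.97e-05)). Zwilch, a subunit of the complex that brings dynein to kinetochores, differed by -1.11 (standard error 0.24, adjusted p = 0.000712). Cenpf, a large coiled-coil protein of the outer plate, and Cenpe, itself a kinesin that moves chromosomes to the spindle equator, differed by -1.02 (standard error 0.24, adjusted p = 0.00159) and -0.61 (standard error 0.20, adjusted p = 0.016). The call of Cenpe was lost without Trpm7 cKO replicate 1 (adjusted p = 0.0545). Knstrn, a spindle and kinetochore protein, was the only member of this group not called, with 54.0 ± 2.25 CPM in control and 42.6 ± 12.9 CPM in Trpm7 cKO libraries (log2 fold change -0.24, standard error 0.19, adjusted p = 0.317).

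Of the 6 checkpoint members, 4 were lower (66.7%, beside 24.1% of all genes tested) and 0 higher (beside 24.6%). Bub1, called lower, had passed the filter through control libraries alone. Mad2l1 encodes MAD2, the inhibitor that an unattached kinetochore loads onto CDC20. It had 141, 95.0, 164, 168 and 98.4 CPM in control replicates 1 to 5 and 33.3, 47.9, 29.2, 58.0 and 27.6 CPM in Trpm7 cKO replicates 1 to 5, without overlap, a 3.18-fold difference (log2 fold change -1.67, standard error 0.23, adjusted p = 6.65e-06). Cdc20, the target of that inhibitor, had 45.7, 50.6, 60.1, 35.1 and 52.1 CPM in control replicates 1 to 5 and 31.4, 16.6, 36.5, 34.8 and 16.6 CPM in Trpm7 cKO replicates 1 to 5. Control replicate 4 overlapped the upper Trpm7 cKO libraries, and the log2 fold change was -0.80 (standard error 0.25, adjusted p = 0.0108).

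Bub3, a subunit of the inhibitory complex, had 256, 247, 237, 271 and 229 CPM in control replicates 1 to 5 and 161, 134, 154, 182 and 149 CPM in Trpm7 cKO replicates 1 to 5. The lowest control library lay above the highest Trpm7 cKO library, a 1.58-fold difference (log2 fold change -0.66, standard error 0.14, adjusted p = 0.000478). Bub1, a kinase that docks the checkpoint at kinetochores, was near the threshold at -0.72 (standard error 0.27, adjusted p = 0.0318). Its call was lost by DESeq2 and limma-voom, with total counts in place of TMM, and without control replicate 1, 2 or 4 or Trpm7 cKO replicate 2, 3 or 5, where the adjusted p lay between 0.0568 and 0.0921. The kinases Bub1b, encoding BUBR1, and Ttk, encoding MPS1, had log2 fold changes of -0.37 (standard error 0.22, adjusted p = 0.163) and -0.25 (standard error 0.35, adjusted p = 0.582) and did not pass. Bub1b in Trpm7 cKO libraries ranged from 29.2 to 66.2 CPM, across the control range of 43.2 to 65.1 CPM.

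All 4 passenger genes, whose proteins correct faulty attachments and then mark the cleavage plane, were lower, beside 24.1% of all genes tested. Aurkb had passed the filter through control libraries alone. Birc5, encoding survivin, had 281, 273, 257, 247 and 265 CPM in control replicates 1 to 5 and 97.9, 118, 113, 166 and 127 CPM in Trpm7 cKO replicates 1 to 5. Control libraries were alike and lay far above the highest Trpm7 cKO library, replicate 4 (2.12-fold lower, log2 fold change -1.08, standard error 0.15, adjusted p = 8.8e-06). Cdca8, encoding borealin, also differed without overlap, with 99.9 ± 17.9 CPM in control and 36.7 ± 16.2 CPM in Trpm7 cKO libraries (log2 fold change -1.38, standard error 0.23, adjusted p = 5.31e-05).

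Aurkb, the kinase of the passenger complex, had 26.9, 14.5, 20.4, 19.1 and 19.7 CPM in control replicates 1 to 5 and 3.70, 11, 7.31, 11.6 and 0 CPM in Trpm7 cKO replicates 1 to 5, from 0 to 7 counts in the latter. The groups did not overlap (log2 fold change -1.34, standard error 0.38, adjusted p = 0.00614), and in 4 of the 10 fits that leave out a library Aurkb did not pass the filter. Incenp, the scaffold of the complex, differed by -0.84 (standard error 0.25, adjusted p = 0.00786), with Trpm7 cKO replicate 4 at 59.7 CPM in a control range of 48.6 to 79.5 CPM.

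The 4 genes listed for the spindle pole and centriole were all lower, beside 24.1% of all genes tested. In each of them each control library exceeded all Trpm7 cKO libraries, beside 17.9% of all genes tested. Aurka and Plk4 had passed the filter through control libraries alone. Cenpj, a centriole protein kept outside this list, was not called (log2 fold change -0.12, standard error 0.35, adjusted p = 0.805). Aurka, the kinase that matures centrosomes, had 111, 78.5, 112, 86.3 and 68.3 CPM in control replicates 1 to 5 and 12.9, 27.6, 25.6, 54.7 and 27.6 CPM in Trpm7 cKO replicates 1 to 5. Plk1, a kinase needed from mitotic entry to cytokinesis, had 167, 179, 142, 124 and 153 CPM in control replicates 1 to 5 and 46.2, 55.2, 25.6, 77.9 and 49.7 CPM in Trpm7 cKO replicates 1 to 5. The differences were 2.95-fold and 2.85-fold, with log2 fold changes of -1.56 (standard error 0.27, adjusted p = 8.97e-05) and -1.51 (standard error 0.20, adjusted p = 5.09e-06). These values lie close to the threshold of 1.5: Plk1 was at -1.41 and Aurka at -1.45 with total counts in place of TMM factors.

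Plk4, which starts centriole duplication, had 63.6, 72.3, 65.4, 69.3 and 71.8 CPM in control replicates 1 to 5 and 22.2, 20.2, 18.3, 51.4 and 11 CPM in Trpm7 cKO replicates 1 to 5. Trpm7 cKO replicate 4 stood apart from the other 4 Trpm7 cKO libraries, although below all control libraries, and the log2 fold change was -1.30 (standard error 0.25, adjusted p = 0.000282), or -1.83 without it. Tpx2, which activates AURKA on spindle microtubules, fell too (log2 fold change -0.66, standard error 0.20, adjusted p = 0.00835).

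**Figure D3:**
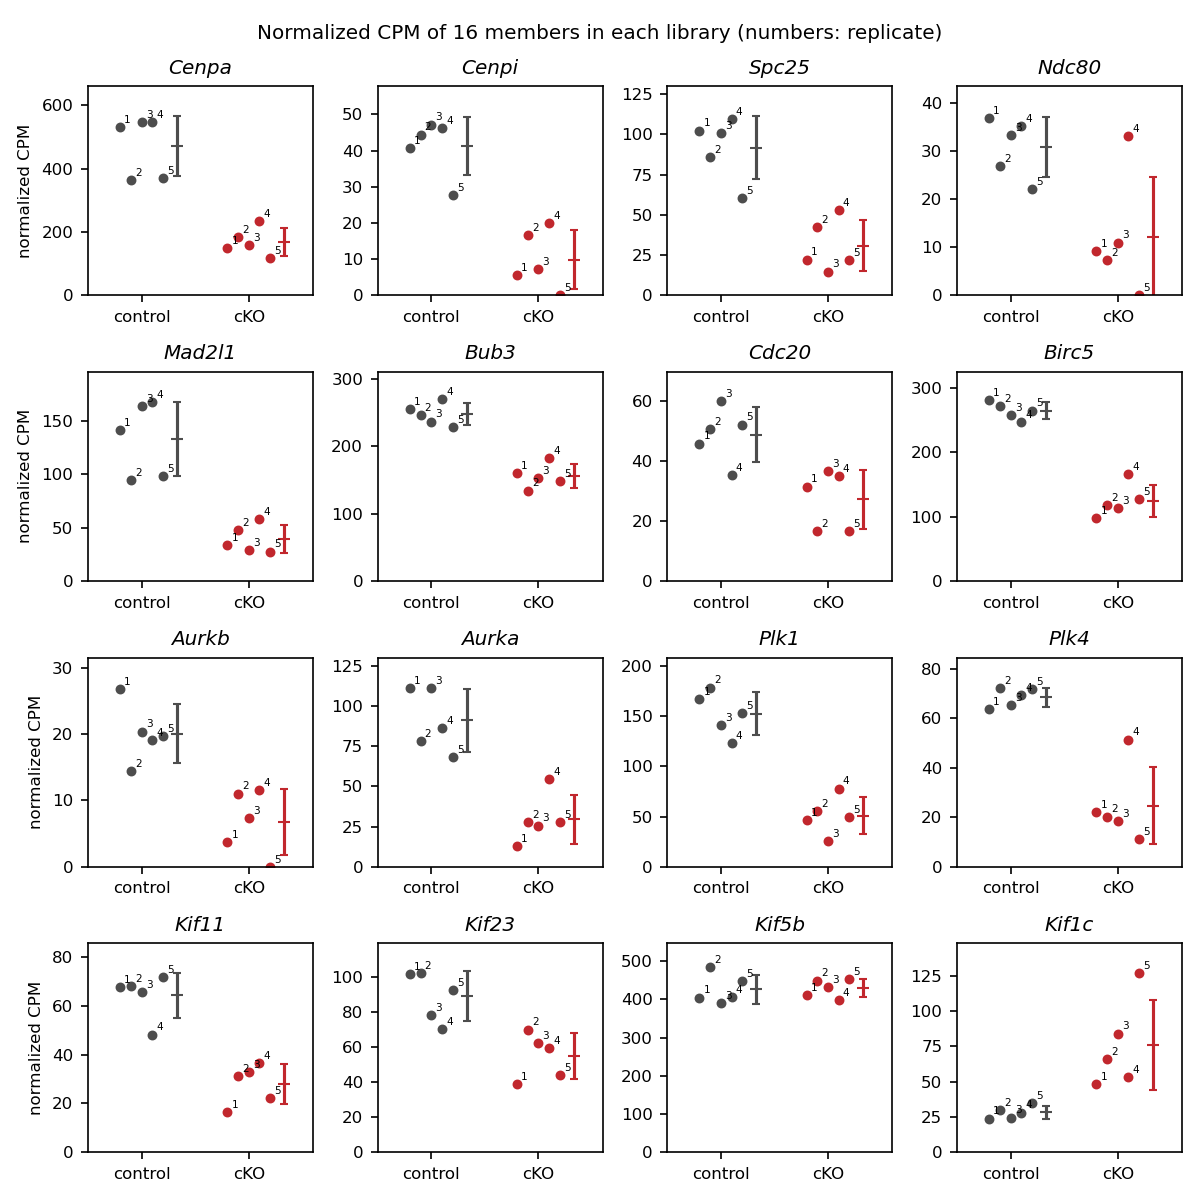
Normalized CPM (y axes, each starting at 0) of 16 members in the 5 control libraries (grey) and the 5 Trpm7 cKO libraries (red), with replicate numbers beside the points and the mean ± SD as bars. Kif5b overlaps between the genotypes, Kif1c is higher in Trpm7 cKO CPM, and Trpm7 cKO replicate 4 is the highest of its genotype for Ndc80 (33.1 CPM), Plk4 (51.4 CPM) and Aurka (54.7 CPM).

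Of 13 mitotic kinesins, 7 were tested, of which 5 were lower (71.4%, beside 24.1% of all genes tested) and 0 higher. Kif4 and Kif22, both called, and Kif2c, not called, had passed the filter through control libraries alone. Kif11, the motor that pushes spindle poles apart, had 67.6, 68.2, 65.4, 48.2 and 71.8 CPM in control replicates 1 to 5 and 16.6, 31.3, 32.9, 36.5 and 22.1 CPM in Trpm7 cKO replicates 1 to 5. Control replicate 4 was the lowest of its genotype but still above the highest Trpm7 cKO library (log2 fold change -1.17, standard error 0.22, adjusted p = 0.000224). Kif15, a motor that can keep a spindle bipolar beside Kif11, differed by -1.12 (standard error 0.21, adjusted p = 0.000231), and Kif4, a chromosome-bound kinesin that lies on the X chromosome, by -1.11 (standard error 0.33, adjusted p = 0.00904).

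Kif23, the motor of the centralspindlin complex in the midzone, had 101, 102, 78.3, 70.3 and 92.6 CPM in control replicates 1 to 5 and 38.8, 69.9, 62.1, 59.6 and 44.1 CPM in Trpm7 cKO replicates 1 to 5. The highest Trpm7 cKO library lay just below the lowest control library (log2 fold change -0.67, standard error 0.19, adjusted p = 0.00642). Kif22, which binds chromosome arms, was called at -0.73 (standard error 0.27, adjusted p = 0.0316), a call lost without control replicate 1 or 2 or Trpm7 cKO replicate 1, 3 or 5 (adjusted p between 0.0543 and 0.102). Kif2c, which takes microtubules apart at the centromere, and Kif20b were not called, at -0.62 (standard error 0.32, adjusted p = 0.115) and -0.49 (standard error 0.27, adjusted p = 0.135). Without Trpm7 cKO replicate 4, Kif2c was called at -1.12 (adjusted p = 0.00601), and it was also called without a filter (adjusted p = 0.00776).

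The 6 mitotic kinesins removed by the filter had at most 23 counts in any library. Kif14, needed for abscission, was counted 23, 16, 13, 12 and 11 times in control and 4, 3, 2, 7 and 0 times in Trpm7 cKO replicates 1 to 5. Kif18a, which aligns chromosomes, was counted 16, 21, 16, 17 and 12 times in control and 5, 5, 2, 6 and 1 times in Trpm7 cKO replicates 1 to 5. For both genes the CPM of the genotypes did not overlap (p = 0.00794 in a two-sided exact permutation test, the smallest that 5 libraries against 5 allow, and 0.0516 adjusted over the 26 removed members with any count). Kif20a, the midzone partner of the passenger complex, had 10 counts over the 5 control libraries and 0 over the 5 Trpm7 cKO libraries, too few for a comparison of single libraries. Kif18b, Kifc1 and Kifc5b had 62, 22 and 9 counts over all libraries, with overlap between the genotypes, and 84.6% of the 3′ end of Kifc1 is shared with Kifc5b and 31.6% of that of Kifc5b with Kifc1, so that their counts are uncertain.

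In the midzone and the contractile ring, Anln, encoding the scaffold anillin, was lower, with 173 ± 16.7 CPM in control and 79.9 ± 24.7 CPM in Trpm7 cKO libraries and no overlap (log2 fold change -1.03, standard error 0.17, adjusted p = 6.11e-05). Prc1, which bundles the midzone microtubules, was not called (log2 fold change -0.53, standard error 0.29, adjusted p = 0.137). It had 26.6 to 40.3 CPM in control libraries, 11.1 to 21.9 CPM in Trpm7 cKO replicates 1 to 3, and 39.8 and 38.6 CPM in Trpm7 cKO replicates 4 and 5, and was called without replicate 4 (log2 fold change -0.93, adjusted p = 0.0145) or without a filter (adjusted p = 0.0336).

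Of the 27 other kinesins, most of them cargo motors, 9 were tested, of which 1 was lower (11.1%, beside 24.1% of all genes tested), 3 were higher (33.3%, beside 24.6%) and 5 were not called, with a median log2 fold change of 0.00. Kif13b and Kif3a had passed the filter through Trpm7 cKO libraries alone, and Kif21a and Kif3b through control libraries alone. Kif5b, the heavy chain of conventional kinesin in most tissues, had 405, 483, 389, 407 and 447 CPM in control replicates 1 to 5 and 412, 449, 431, 398 and 452 CPM in Trpm7 cKO replicates 1 to 5. These ranges overlap almost fully (log2 fold change 0.00, standard error 0.13, adjusted p = 0.981), and Kif5b alone made up 49.4 to 54.6% of other kinesin counts in control and 47.8 to 52.3% in Trpm7 cKO libraries.

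Kif1c, a kinesin-3 motor of vesicle transport, had 23.9, 29.9, 24.7, 28.1 and 34.7 CPM in control replicates 1 to 5 and 48.0, 66.2, 84.0, 53.0 and 127 CPM in Trpm7 cKO replicates 1 to 5. Every Trpm7 cKO library lay above all control libraries, and replicate 5, the smallest library, was the highest (2.44-fold higher, log2 fold change 1.29, standard error 0.24, adjusted p = 0.000182). Kif13b, of the same family, had 12.9, 19.6, 18.2, 14.1 and 19.7 CPM in control replicates 1 to 5 and 33.3, 27.6, 36.5, 38.1 and 22.1 CPM in Trpm7 cKO replicates 1 to 5, also without overlap (log2 fold change 0.94, standard error 0.24, adjusted p = 0.00332). Kif13a was called at 0.64 (standard error 0.23, adjusted p = 0.0279), and its call was lost without control replicate 1 or 3 or Trpm7 cKO replicate 3 or 5 (adjusted p between 0.0505 and 0.0837). With counts per sorted cell, Kif13a and Kif13b had negative log2 fold changes and Kif1c was at 0.06, beside a median of -1.17 over all genes, as given above.

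Kif1b, a further kinesin-3 motor, was the lone member of this group to fall, with 135 ± 14.7 CPM in control and 96.3 ± 7.92 CPM in Trpm7 cKO libraries and no overlap (log2 fold change -0.48, standard error 0.15, adjusted p = 0.0093). Kif3a and Kif3b, partners in the motor of ciliary transport, had log2 fold changes of 0.41 (standard error 0.31, adjusted p = 0.292) and -0.02 (standard error 0.33, adjusted p = 0.97). Kif2a and Kif21a were not called at -0.22 and -0.30. Among the 18 members of the group removed by the filter, Kif5c had 8 to 14 counts in control and 1 to 4 in Trpm7 cKO libraries, without overlap in CPM (exact permutation test, two-sided, p = 0.00794, adjusted p = 0.0516). Kif5a, a neuronal paralog, had 1 count in each Trpm7 cKO library and in 1 control library, too few for a comparison, and Kif19a and Kifc3 had 0 counts in all 10. The other 14 removed members of this group had at most 11 counts in any library and overlapped between the genotypes. Outside these groups, Cenpv fell (log2 fold change -1.05, standard error 0.23, adjusted p = 0.000935), and Cenpj, a centriole protein in spite of its symbol, did not pass at -0.12 (standard error 0.35, adjusted p = 0.805).

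Each mitotic role group was lower in sum, without overlap between the genotypes, by 2.46-fold for the spindle pole and centriole genes, 2.2-fold for the passenger genes, 2.02-fold for the outer kinetochore, 1.97-fold for midzone and cytokinesis, 1.86-fold each for the inner centromere and the mitotic kinesins, and 1.8-fold for the checkpoint. Spindle pole and centriole genes made up 11.4% ± 0.919 of the mitotic sum in control and 8.94% ± 0.917 in Trpm7 cKO libraries, and the inner centromere 26.2% ± 1.61 and 28.1% ± 1.21. Single genes weigh heavily in some sums. Cenpa had mean levels of 472 CPM in control and 168 CPM in Trpm7 cKO libraries, within inner centromere sums of 966 and 520 CPM. Birc5 had 265 and 124 CPM within passenger sums of 452 and 205 CPM. Bub3 had 248 and 156 CPM within checkpoint sums of 537 and 299 CPM. The sums and shares of role groups are descriptions of the libraries, with no test.

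Genes of the same processes that the symbols did not select were counted from fixed lists. Of 70 tested, 37 were lower and 5 higher, beside 24.1% and 24.6% of all genes tested, with a median log2 fold change of -0.63. The other kinetochore genes counted 9 lower and 0 higher of 17, among them Trip13, which disassembles the MAD2 complex (log2 fold change -1.98, adjusted p = 4.21e-06), and Ska1 of the microtubule-tracking Ska complex (-1.84, adjusted p = 4.17e-06). Of 17 genes of the anaphase-promoting complex and its targets 8 were lower and 2 higher, of 17 condensin and cohesin genes 7 were lower and 2 higher, and of 19 other spindle and cytokinesis genes 13 were lower and 1 higher. Numa1, a spindle pole protein that is also part of the nuclear matrix, was the highest of all 70 (log2 fold change 1.08, adjusted p = 2.12e-04).

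Markers of other cells moved with the genotype, although the sort was for YFP. Of all genes tested, 24.6% were higher and 24.1% lower, which stand beside each marker count here. All 21 tested leukocyte markers of 29 in the table were higher in Trpm7 cKO libraries. Leukocyte markers summed to 431 to 698 CPM in control and 1561 to 6977 CPM in Trpm7 cKO libraries. Cd3e, Cd79a and Nkg7, of lymphocytes, had 0 counts in all control libraries and at most 2 in any Trpm7 cKO library. Endothelial markers summed to 5.36 to 67.1 CPM in control and 118 to 607 CPM in Trpm7 cKO libraries (3 of 3 tested higher), fibroadipogenic markers to 1025 to 2061 and 1725 to 3969 CPM (5 of 6 higher), and erythroid markers to 1.99 to 178 and 146 to 3274 CPM (3 of 3 higher). Whether transcripts of these lists, such as Dpt and Cd34 of the fibroadipogenic list, came from other cells or from MuSCs was not tested. Pax7 and other satellite cell markers were present in all libraries and summed to 3555 to 4103 CPM in control and 2784 to 4653 CPM in Trpm7 cKO libraries, with 3 of 14 tested lower and 7 higher. The mitochondrial share of counts was 12.0 to 16.5% in control and 8.82 to 10.6% in Trpm7 cKO libraries. The part of these differences in the levels of mitotic genes was not tested.

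Per count of a satellite cell marker, mitotic members had 0.797 to 1.14 counts in control libraries, and in Trpm7 cKO replicates 1 to 5 the ratios were 0.331, 0.426, 0.427, 0.930 and 0.375. The markers in this denominator moved unequally themselves, from a log2 fold change of -2.01 for Myod1 to 3.49 for Chodl. Trpm7 cKO replicate 2, with the lowest leukocyte level of its genotype, 1561 CPM, still above the highest control library at 698 CPM, had a mitotic sum of 1879 CPM. Trpm7 cKO replicate 4, with the highest leukocyte level, had the highest mitotic sum and the lowest satellite cell marker level. Without this library 39 of 59 tested members were lower, beside 23.6% of all genes tested. Of these members 13 passed both thresholds, in place of 4 with all libraries, where 33 of 56 were lower. The leukocyte score, the mean log2 CPM of the markers, was 3.83 to 4.38 in control and 5.61 to 7.65 in Trpm7 cKO libraries, so that score and genotype largely coincide. With this score as a covariate, 3 members were called lower, Birc5, Plk1 and Plk4, beside 1.6% of all genes tested. In that fit 47 of 56 members were below 0, with a median log2 fold change of -1.04.

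**Figure D4:**
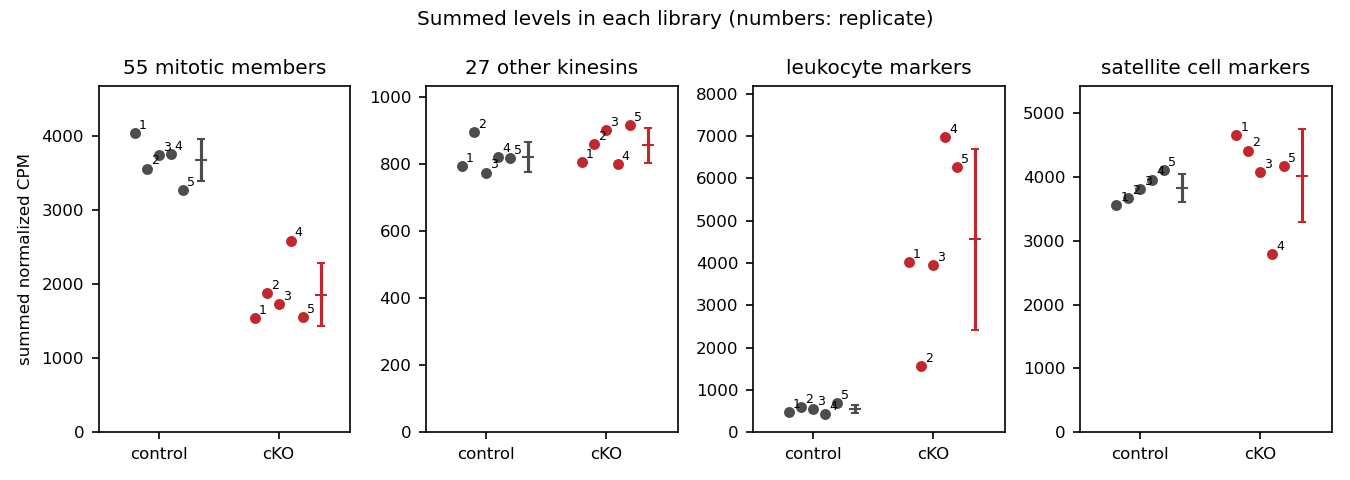
Summed normalized CPM (y axes, each starting at 0 on its own scale) in each library for the 55 mitotic members, the 27 other kinesins, the leukocyte markers and the satellite cell markers, control in grey and Trpm7 cKO in red, with replicate numbers and the mean ± SD. Mitotic sums do not overlap (control from 3272, Trpm7 cKO up to 2590 CPM), and Trpm7 cKO replicate 4 is highest of its genotype in mitotic and leukocyte sums and lowest in satellite cell markers.

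Some members share 3′-end sequence with other genes. Of the 56 tested, 9 share over 20% of the last 500 transcript bases with another annotated gene, in matches of 31 bases: Cdc20 (68.4%), Spc24 (58.6%), Ndc80 (38.2%), Cenpf (38.0%), Cenpc1 (35.6%), Tpx2 (31.4%), Kif11 (28.0%), Kif15 (26.8%) and Nuf2 (21%). A gene on the opposite strand reaches the 3′ end of 6 others or of the same members, Bub3, Cdc20, Cenpt, Kif2a, Prc1 and Zwilch, and Spef1 overlaps that of Cenpb on the same strand. Whether strand was used in counting is not given in the sources used here, so counts of these members are less certain.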

How the data were processed

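The authors extracted barcodes and UMIs with UMI-tools (version 1.1.4), trimmed reads with Trim Galore (version 0.6.10), mapped them to GRCm38 with HISAT2 (version 2.2.1), counted reads per gene with featureCounts (version 2.0.6) and removed UMI duplicates. They deposited whole-number counts per gene without normalization. The annotation release and strand setting are not given in the sources used here. The table has 24620 rows under 24608 symbols, and for the 12 further rows of a repeated symbol the row with the larger total was used. Library totals lay between 205986 and 1097709 counts, which sets the precision of each level.

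Genotypes were taken from the labels, and all 10 columns were mapped by library name. Within a genotype, every pair of libraries differed by more than counting noise, with a chi-square per degree of freedom of 1.48 to 6.63, so all 10 were kept. In edgeR 4.0.16 (R 4.3.3), genes were kept by filterByExpr (minimum count 10, minimum total count 15), scaled by TMM and tested by a robust quasi-likelihood F test, with genotype as the only term and Benjamini-Hochberg adjustment over all genes tested. A gene was called at an adjusted p below 0.05. The second threshold, a change beyond 1.5 on the log2 scale, is that of the study's DESeq2 analysis. Members removed by the filter were compared by exact permutation tests over the 252 arrangements of 5 and 5 libraries. The procedure was tested on simulated data with known changes. Named members were those past both thresholds, those called higher, the extremes of each role group, a fixed set of well-known genes, and removed members as members. Members, role groups and marker lists were chosen with earlier results of these data known.

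Gene ends and shared sequence came from the GENCODE annotation of GRCm38, and promoters from RefSeq (GRCm38.p6), in which 70 of 84 members matched by symbol. Alternatives were DESeq2 1.42.0, limma-voom (limma 3.58.1), RLE factors, total counts alone, scaling on satellite cell markers, counts per sorted cell, no filter or a minimum count of 5, thinning to the smallest library, a leukocyte score as covariate, a block for the replicate number, summing Trpm7 cKO replicates 4 and 5, an adjusted p below 0.01, and each library left out.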

Additional observations from a re-analysis of the deposited data

Results flagged for a closer look

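For 6 of 116 sets of 5 libraries, the highest or lowest library lay far from the other 4 by Dixon's criterion, and chance alone marks about 1 set in 20. In Trpm7 cKO replicate 4, Plk4 had 51.4 CPM, beside 11 to 22.2 CPM in the other 4 Trpm7 cKO libraries, and Cenpn had 19.9 CPM, beside 0 to 5.54 CPM. In control replicate 1, Cenph had 54.7 CPM, beside 42.8 to 45.4 CPM in the other control libraries, and Kif20b had 37.8 CPM, beside 21.1 to 25.5 CPM. In control replicate 4, Zwint had 179 CPM, beside 88.8 to 111 CPM, and Kif11 had 48.2 CPM, beside 65.4 to 71.8 CPM. The leukocyte, satellite cell and mitotic sums of Trpm7 cKO replicate 4 are given with the results above.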

How the results depend on the processing

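Counts of members called lower (33), higher (3), lower past both thresholds (4) and higher past both (0), the median log2 fold change (-0.70) and the log2 ratio of the mitotic sums (-0.98) were recomputed under each alternative. With total counts alone, 2 members were lower past both thresholds. With counts per sorted cell, 54 of 58 were lower, beside 67.9% of all genes, 0 higher and 43 lower past both, the median was -1.85 and the mitotic sum -2.07, while all genes tested had a median of -1.17. Without a filter, 11 were lower past both thresholds and 2, Kif21b and Kif9 with at most 8 counts over the Trpm7 cKO libraries, higher past both. Thinned to the smallest library, 27 members could be tested, with 16 lower, 1 higher, 2 lower past both and 1, Kif1c, higher past both. Of all 3941 genes tested after thinning, 22.3% were lower and 915 were higher. With the leukocyte score as a covariate, 3 were lower, 0 higher and the median was -1.04, and 124 genes of all 7753 were lower. The cause of these changes was not tested beyond the number of genes or libraries that entered. DESeq2 (32 lower, 3 higher), limma-voom (33 and 3), RLE factors (33 and 3), satellite cell marker scaling (27 and 2) and an adjusted p below 0.01 (27 and 2) stayed within 1.5 times the counts called. Lower among all genes tested were 22.1% by DESeq2, 23.5% by limma-voom, 23.6% with RLE factors and 19.6% with marker scaling, which tested 57 members. Higher were, in the same order, 1883, 1880 and 1949 of 7753 genes and 1654 of 7991. The share of all genes at an adjusted p below 0.01 is not given here.

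Leaving out each library gave 29 to 39 members lower, of 50 to 59 tested. These shares, 50.8 to 66.1%, stood beside 20.5 to 23.6% of all genes tested. Higher were 2 to 3, lower past both 2 to 13 and higher past both 0, with medians of -0.96 to -0.57 and mitotic sums of -1.15 to -0.93. The count past both thresholds was 2 without control replicate 1 or Trpm7 cKO replicate 1, and 13 without Trpm7 cKO replicate 4. With Trpm7 cKO replicates 4 and 5 summed, 36 of 59 were lower, beside 23.2% of all genes tested, and 3 higher.

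The replicate number as a block gave 33 lower, 3 higher and 5 lower past both. Of all 7753 genes tested with this block, 22.7% were lower and 1814 were higher. Libraries of the same number correlated at -0.04, -0.12, -0.07, 0.06 and 0.18 in their deviations from the genotype means, and only replicate 5 correlated best with its own number, so the numbers were not taken as pairs.

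Some uncalled members and Kif13a and Kif13b changed sign. Per sorted cell, log2 fold changes were -0.93 for Cenpb, -1.06 for Cenpm, -1.11 for Cenpq, -0.53 for Kif13a, -0.19 for Kif13b, -0.75 for Kif3a and -1.16 for Kif5b. With the covariate they were -0.049 for Cenpb, -0.018 for Cenpm, 0.085 for Cenpt, 0.22 for Kif21a and 0.077 for Knstrn. Without a filter they were -0.11 for Cenpm, -0.18 for Cenpq and -0.21 for Kif5b, and with a minimum count of 5, -0.028 for Cenpq and -0.046 for Kif5b. Cenpq was at -0.031 by limma-voom, -0.026 with the block, -0.0054 with marker scaling and -0.012 with replicates 4 and 5 summed. Kif3b was at 0.088 with total counts and 0.012 with these summed, and Kif5b at -0.032 with marker scaling and -0.013 with these summed. Leaving out libraries moved Kif5b between -0.038 and 0.059, Kif3b between -0.21 and 0.14, Cenpq between -0.24 and 0.19, Cenpm between -0.076 and 0.19, Cenpj between -0.36 and 0.11 and Ttk between -0.63 and 0.0014.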
